A study of Mus musculus with 2 samples.

Results

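The genes described here are the 9 AP-1 and Egr immediate early genes Fos, Fosb, Jun, Junb, Jund, Atf3, Egr1, Egr2 and Egr3. They were picked by name out of 32285 genes in the count tables, and each name matched a single gene. The cells were T cells that had infiltrated EMT6 tumours, a mouse mammary carcinoma line grown under the skin of BALB/c mice aged 4 to 6 weeks, with 1 single-cell library of each treatment. In the mSTAR1302 group the mice received 2 weekly cycles of this antibody into the peritoneum, and in the vehicle group they received vehicle, after randomisation at a tumour volume of 80 to 150 mm3. Tumours of both groups were digested with collagenase and DNase for 30 min at 37 °C, CD4+ and CD8+ cells were taken with magnetic beads and kept in medium with 5% serum, and 3′ libraries were made on the 10x Genomics platform. mSTAR1302 is known as an antibody against T cell receptor beta chains encoded by Trbv13-2 and Trbv13-3 that carries interleukin-2. The labels do not say how many mice or tumours went into a library.

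Immediate early genes are transcribed within minutes of a stimulus from transcription factors already present in the cell, without new protein synthesis. Fos and Jun proteins pair through leucine zippers to form AP-1, which with NFAT drives cytokine genes after T cell receptor engagement, while Egr proteins are zinc finger factors downstream of the Ras and ERK pathway. Warm enzymatic digestion of tissue is also known to induce Fos, Jun, Egr1, Atf3 and heat shock genes in dissociated cells, so the same transcripts can be made in the tumour or at the bench. Which of these gave the transcripts counted here was not tested.

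Cells were barcodes with at least 1000 UMIs (unique molecular identifiers, each standing for 1 captured transcript), at least 500 genes and at most 10% mitochondrial UMIs. They numbered 9155 for mSTAR1302 and 7615 for vehicle, with a median of 6260 and 8448 UMIs per cell, and 8718 and 6729 of them were T cells with at least 2 UMIs of Cd3d, Cd3e and Cd3g together. The CD8 gate took T cells in which Cd8a or Cd8b1 was counted and Cd4 was not, and held 6290 cells for mSTAR1302 and 2460 for vehicle. T cells with Cd4 and neither Cd8 gene were split by a UMI of Foxp3, the master regulator of regulatory T cells, into 791 and 622 cells without it and 146 and 1365 cells with it. Levels are UMIs of a gene summed over a gate scaled to 1000000 UMIs of that gate (CPM), and ratios are mSTAR1302 over vehicle. With 1 library per group no test between treatments was possible. The 95% intervals (exact Poisson for a level, exact conditional binomial for a ratio) cover counting error only, not the spread between mice, and a difference of at least 2-fold stands in for a call.

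The T cell label held in markers that the gates did not use. Trac, the constant segment of the alpha chain, had a UMI in 91.0% of mSTAR1302 and 95.2% of vehicle CD8 gated cells. Ikzf2, a regulatory T cell marker, had a UMI in 90.4% and 97.4% of cells of the CD4 gate with Foxp3. In the CD4 gate without Foxp3, however, Ikzf2 had a UMI in 17.4% of mSTAR1302 and 48.9% of vehicle cells, so the vehicle cells of that gate held more of this marker although no Foxp3 UMI was counted in them. Transcripts of other cell types also differed. All 8 macrophage and monocyte markers on the list were found in all 3 gates of the vehicle library, and their summed level in the CD8 gate was 79.0 CPM for mSTAR1302 and 897 CPM for vehicle. It was 83.7 and 1278 CPM in the CD4 gate without Foxp3, and 12.8 and 328 CPM in the CD4 gate with Foxp3, where C1qa was at 0 in the mSTAR1302 library. A UMI of Lyz2, a C1q gene, a type I collagen gene, Krt8 or Krt18 was present in 9.27% of mSTAR1302 and 45.2% of vehicle CD8 gated cells. The libraries shared 17 cell barcodes, which is 0.186% of the cells for mSTAR1302 and 0.223% for vehicle.

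In the GENCODE M21 annotation of GRCm38, Fos spans chr12:85473890-85477273 on the plus strand, Fosb chr7:19302696-19310051 on the minus strand and Jun chr4:95049034-95052222 on the minus strand. Junb spans chr8:84974484-84978718 on the minus strand, Jund chr8:70698949-70700616 on the plus strand and Atf3 chr1:191170296-191218039 on the minus strand. Egr2 spans chr10:67535475-67542188 and Egr3 chr14:70077203-70082614, both on the plus strand. Counts were summed per gene, so isoforms were not told apart.

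Start regions of the members with the lowest ratios in the CD8 gate, and of Egr2 for its serum response element letters, are shown before the values. Each window runs from 250 bases before to 50 bases after a RefSeq start on GRCm38.p6 and is written 5′ to 3′ on the strand of the gene, with capitals for the letters searched. Fos lies on the plus strand (window chr12:85473640-85473939), Atf3 on the minus strand (chr1:191183284-191183583), Jun on the minus strand (chr4:95052173-95052472) and Egr2 on the plus strand (chr10:67537619-67537918, the third of 5 listed starts).
Fos: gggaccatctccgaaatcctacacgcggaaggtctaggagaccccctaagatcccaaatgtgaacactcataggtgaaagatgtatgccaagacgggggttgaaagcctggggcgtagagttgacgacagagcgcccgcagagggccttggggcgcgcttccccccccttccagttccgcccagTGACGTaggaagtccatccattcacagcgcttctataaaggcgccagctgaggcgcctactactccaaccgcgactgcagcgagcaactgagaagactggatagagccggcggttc
Atf3: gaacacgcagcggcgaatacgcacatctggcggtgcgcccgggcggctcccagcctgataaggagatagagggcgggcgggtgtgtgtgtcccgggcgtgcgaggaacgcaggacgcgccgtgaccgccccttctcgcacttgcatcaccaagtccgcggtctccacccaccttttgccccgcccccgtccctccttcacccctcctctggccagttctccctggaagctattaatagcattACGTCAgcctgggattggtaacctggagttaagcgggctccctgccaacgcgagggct
Jun: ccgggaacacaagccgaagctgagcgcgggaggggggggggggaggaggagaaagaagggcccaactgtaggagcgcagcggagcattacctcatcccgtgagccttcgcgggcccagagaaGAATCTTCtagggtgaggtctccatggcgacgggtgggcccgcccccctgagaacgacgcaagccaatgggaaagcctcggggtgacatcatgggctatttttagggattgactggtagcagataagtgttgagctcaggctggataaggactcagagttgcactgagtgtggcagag
Egr2: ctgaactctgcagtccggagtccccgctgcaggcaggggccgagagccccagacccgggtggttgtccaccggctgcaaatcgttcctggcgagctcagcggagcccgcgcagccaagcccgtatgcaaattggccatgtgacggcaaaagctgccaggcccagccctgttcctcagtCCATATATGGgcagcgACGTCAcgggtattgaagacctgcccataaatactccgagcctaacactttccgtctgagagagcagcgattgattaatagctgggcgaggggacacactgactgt
Capitals mark TGACGT, the cyclic AMP response half-site bound by ATF and CREB proteins, in Fos and, read on the other strand as ACGTCA, in Egr2 and Atf3. They also mark the CArG box CCATATATGG, the core of serum response elements, in Egr2, and GAATCTTC, which has the letters GAANNTTC of a heat shock element, in Jun. The letters TGACGT, searched on both strands and chosen after the sequences had been seen, were in 7.51% of 32851 mouse windows of the same length. GAANNTTC was in 7.86%, the CArG box in 1.63%, the AP-1 letters TGANTCA in 7.81%, the Egr letters GCGNGGGCG in 5.55% and the full-length TGACGTCA, which contains TGACGT, in 1.79%. Of the 7 members whose windows were searched, Fosb held GCGGGGGCG, and Junb held none of these letters. Jund held none either, in a window that lies before the annotated span of the gene. A match describes the letters of a window, not a bound site.

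In the CD8 gate all 9 genes had a lower level in the mSTAR1302 library, Jund by so little that another scaling turned its sign. The 9 genes together took 0.368% of UMIs for mSTAR1302 and 0.484% for vehicle. The median member had a log2 ratio of −0.50, against −0.14 for the median of all 5473 tested genes (those reaching 20 CPM in at least 1 library), 72.5% of which lay below 0. Atf3 was the member that passed 2-fold. It was 1 of 8 members with at least 20 CPM, and over all such genes 4.73% were at least 2-fold lower and 1.04% at least 2-fold higher in mSTAR1302. With the libraries scaled by the median ratio over genes, which takes this general shift off, the median member was at −0.38 and the count of members 2-fold lower became 0. In a summed level, fewer cells with a transcript and fewer transcripts per cell cannot be told apart, and shares of cells are given further on.

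**Figure D1:**
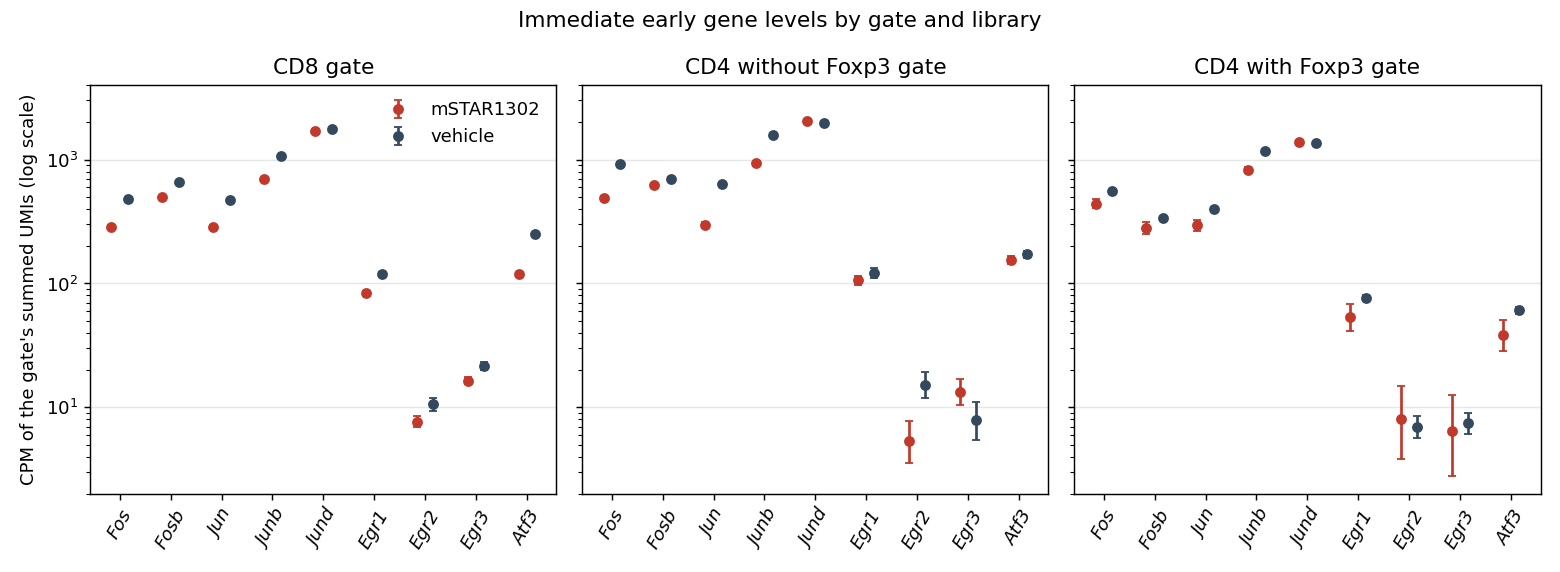
Level of each gene in the 3 gates, in CPM on a log scale, for the mSTAR1302 library (red, left of each pair) and the vehicle library (dark, right), with exact Poisson 95% intervals for counting error. In the CD8 gate every red point lies below its dark partner, from 1696 against 1766 CPM for Jund, whose sign another scaling turned, to 118 against 251 CPM for Atf3.

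Fos, the partner that lends AP-1 its strongest transactivating form, stood at 286 CPM in mSTAR1302 and 481 CPM in vehicle CD8 gated cells (13966 and 13909 UMIs). Its log2 ratio was −0.75 (interval −0.78 to −0.71). Fosb, a close relative of Fos, stood at 495 CPM in mSTAR1302 and 659 CPM in vehicle, a log2 ratio of −0.41 (−0.44 to −0.39). The 2 Fos family genes thus pointed the same way in CD8 gated cells, with Fosb nearer to the median of all genes.

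Among the Jun genes, Jun itself stood at 288 CPM in mSTAR1302 and 472 CPM in vehicle CD8 gated cells, a log2 ratio of −0.71 (−0.75 to −0.68). Junb, which restrains Jun activity and also partners BATF in T cells, stood at 693 and 1059 CPM, a log2 ratio of −0.61 (−0.64 to −0.59). Jund, the family member expressed in resting cells rather than as an acute response, stood at 1696 and 1766 CPM. Its log2 ratio of −0.06 (−0.08 to −0.04) was above that of the median gene and became +0.06 with median-ratio scaling, so no direction is given for Jund. Jun and Junb were therefore set apart from Jund within the family: 7.80% and 9.98% of the tested genes had a ratio as low as theirs or lower, against 64.0% for Jund. Jun, Junb and Jund overlap Junos, Prdx2 and Gm11175 on the opposite strand in the gene annotation, and the sources used here do not say whether reads were counted by strand.

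Atf3, a stress-induced factor that dimerises with Jun and mostly represses, differed most of the members. It stood at 118 CPM in mSTAR1302 and 251 CPM in vehicle CD8 gated cells (5772 and 7260 UMIs), 2.12-fold lower, with a log2 ratio of −1.08 (−1.13 to −1.03). Of the tested genes 4.17% were as low or lower. With median-ratio scaling its log2 ratio was −0.96, and without cells carrying a UMI of another cell type it was −1.15.

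The Egr genes had fewer UMIs. Egr1 (GRCm38, chr18:34859823-34864984, plus strand), induced by ERK through serum response elements, stood at 84.1 CPM in mSTAR1302 and 119 CPM in vehicle CD8 gated cells, a log2 ratio of −0.50 (−0.57 to −0.44). Egr2, which with Egr3 restrains T cell activation and is linked to anergy, stood at 7.68 and 10.6 CPM (375 and 306 UMIs), a log2 ratio of −0.46 (−0.68 to −0.24). Egr3 stood at 16.4 and 21.7 CPM (802 and 627 UMIs), a log2 ratio of −0.40 (−0.55 to −0.25). The 3 intervals overlap, so no order among the Egr ratios is given.

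The CD4 gate without Foxp3 split the members. The median member had a log2 ratio of −0.20, near the −0.21 of the median of all 5518 tested genes, and 1 of 7 members with at least 20 CPM was at least 2-fold lower, with 5.35% of all genes lower by that much and 0.906% higher. That member was Jun, at 297 CPM in mSTAR1302 and 639 CPM in vehicle, a log2 ratio of −1.11 (−1.20 to −1.02). Fos stood at 487 and 918 CPM, a log2 ratio of −0.91 (−0.99 to −0.84), and Junb at 933 and 1575 CPM, a log2 ratio of −0.76 (−0.81 to −0.70). Fosb, Egr1 and Atf3 lay close to the median gene, at −0.17, −0.20 and −0.15. Atf3 thus stood at 155 CPM in mSTAR1302 and 172 CPM in vehicle, a difference far from that in the CD8 gate. Jund stood at 2045 and 1968 CPM, a log2 ratio of +0.06 (0.01 to 0.10) that was −0.002 after thinning.

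Egr2 and Egr3 went opposite ways in this gate on few UMIs. Egr2 stood at 5.36 CPM in mSTAR1302 and 15.3 CPM in vehicle (28 and 66 UMIs), a log2 ratio of −1.51 (−2.20 to −0.85). Egr3 stood at 13.4 and 7.87 CPM (70 and 34 UMIs), a log2 ratio of +0.77 (0.16 to 1.40). Egr3 was the gene of the group with a higher level in mSTAR1302 whose interval left out no change and whose sign held under all 10 alternatives that gave it a value there. Without cells carrying UMIs of other cell types its log2 ratio was +1.57. The share of cells with an Ikzf2 UMI given above differed between the libraries in this gate, and its part in these ratios was not tested. When cells were thinned to 1000 UMIs before they were gated, no member was 2-fold lower here, Fos was at −0.38 and Jun at −0.35. That setting also turned Fosb to 0.54 and Atf3 to 0.54, and median-ratio scaling turned Atf3 to 0.01, so no direction is given for Fosb and Atf3 in this gate. After thinning to 3000 UMIs, Fos was at −1.01 and passed 2-fold.

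No member of the CD4 gate with Foxp3, which held 146 cells for mSTAR1302, passed 2-fold, where 1.95% of 5732 tested genes were lower and 0.576% higher by that much. The median member had a log2 ratio of −0.33, against −0.13 for all genes. Junb stood at 824 CPM in mSTAR1302 and 1168 CPM in vehicle, a log2 ratio of −0.50 (−0.60 to −0.41). Fos stood at 440 and 554 CPM (−0.33, interval −0.46 to −0.21), Fosb at 281 and 339 CPM (−0.27), and Jun at 296 and 401 CPM (−0.44). Egr1 stood at 53.8 and 76.2 CPM (−0.50, interval −0.88 to −0.15; +0.60 after thinning to 1000 UMIs before gating) and Atf3 at 38.5 and 60.8 CPM (48 and 877 UMIs; −0.66, interval −1.11 to −0.24). Without cells carrying UMIs of other types, Atf3 was at −0.10. The intervals for Jund, Egr2 and Egr3 included no change, so differences in these genes were not detectable at this depth.

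**Figure D2:**
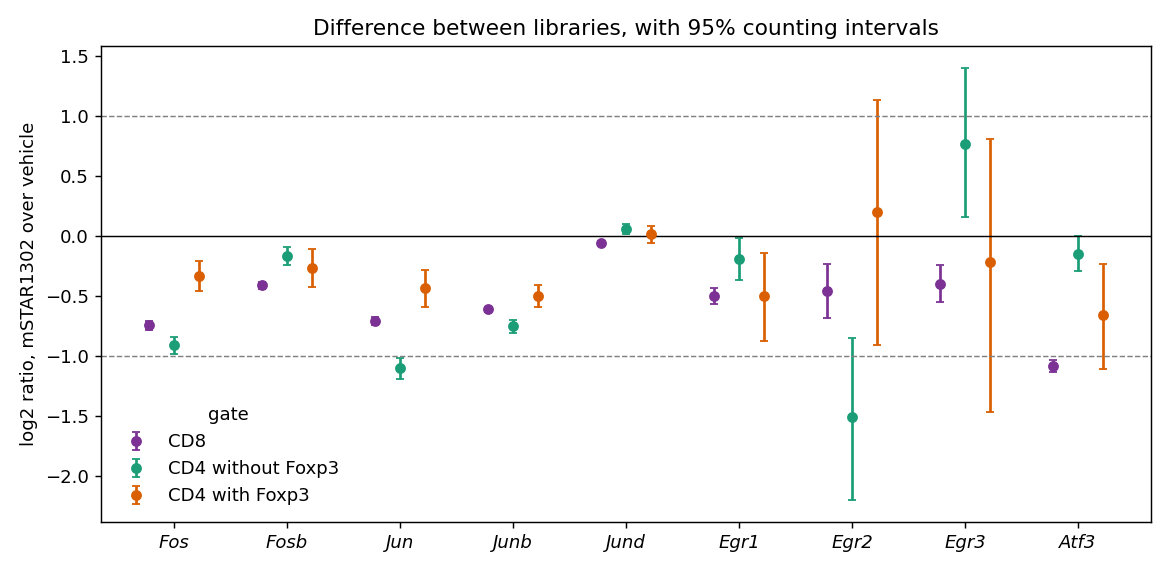
Log2 ratio of each gene, mSTAR1302 over vehicle, in the CD8 gate (purple), the CD4 gate without Foxp3 (green) and the CD4 gate with Foxp3 (orange), with exact conditional binomial 95% intervals for counting error; dashed lines mark 2-fold. Atf3 is at −1.08 in the CD8 gate and −0.15 in the CD4 gate without Foxp3, and Egr3 is at −0.40 and +0.77 in the same gates.

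The order of levels over populations differed from gene to gene. Atf3 was lowest in the CD4 gate with Foxp3, at 38.5 CPM for mSTAR1302 and 60.8 CPM for vehicle, and among T cell gates highest in vehicle CD8 cells. Fos and Jun had their lowest level of the 12 sums (6 populations in 2 libraries) in mSTAR1302 CD8 cells. For Jun the neighbours of that sum, 296 and 297 CPM in the mSTAR1302 CD4 gates, had overlapping intervals with it. Barcodes with macrophage markers and no Cd3 UMI, 14 for mSTAR1302 and 44 for vehicle, stood at 1458 and 2017 CPM of Fos and 618 and 821 CPM of Atf3, above every T cell gate. Egr2 stood there at 96.6 and 48.9 CPM. Egr3 was found in none of the 14 mSTAR1302 barcodes, where 0 UMIs allow up to 15.5 CPM at the upper Poisson limit.

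Macrophage transcripts differed between the libraries, and these barcodes were high in Fos and Atf3. The CD8 ratios were therefore also taken over the 5707 mSTAR1302 and 1347 vehicle cells with no UMI of the other cell types. The median member was at −0.50 there, Fos at −0.57, Jun at −0.63, Junb at −0.70 and Atf3 at −1.15. The ratios for Atf3 and Junb were thus as large without those cells, and that for Fos was smaller than in the whole gate. Barcodes removed for more than 10% mitochondrial UMIs, 1872 for mSTAR1302 and 1704 for vehicle, stood at 571 and 857 CPM of Jun and 928 and 878 CPM of Fosb. Jun was above its level in the CD8 gate in those barcodes of both libraries, while Atf3 stood at 129 and 126 CPM in them.

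The share of cells with a transcript was compared after thinning each cell to 3000 UMIs, which left out 680 mSTAR1302 and 120 vehicle cells of the CD8 gate; all intervals here are exact Clopper-Pearson. Atf3 had a UMI in 18.2% (17.2 to 19.2) of mSTAR1302 and 37.7% (35.7 to 39.7) of vehicle CD8 cells. At full depth the shares were 27.8% and 58.6%. Cells with an Atf3 UMI held 1.89 and 2.03 UMIs on average. For Atf3 the ratio of shares was 0.48 and that of UMIs per positive cell 0.93. Junb had a UMI in 77.2% and 88.4% of cells (a ratio of 0.87) and 2.79 and 4.00 UMIs per positive cell (a ratio of 0.70). A gene found in most cells has little room to differ in share, so these ratios depend on the level of the gene. No difference in form between Atf3 and Junb is read from them. Fos had a UMI in 42.2% (40.9 to 43.5) and 55.4% (53.3 to 57.4) of cells, Jun in 39.3% and 52.2%, and Fosb in 61.7% and 73.9%. At full depth Fos had a UMI in 61.2% of mSTAR1302 and 80.0% of vehicle cells.

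Egr3 combined both directions within the CD8 gate. It had a UMI in 2.83% (2.42 to 3.30) of thinned mSTAR1302 cells and 5.34% (4.47 to 6.33) of vehicle cells, while its positive cells held 1.74 and 1.28 UMIs. The share of cells with Egr3 was thus lower in mSTAR1302 while the UMIs per positive cell were higher. Egr2 had a UMI in 2.17% and 3.29% of cells, and Egr1 in 18.8% and 24.4% with 1.36 UMIs per positive cell in both. Jund had a UMI in 96.8% and 97.9% of cells.

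No cell type in these files is known to lack these transcripts, so the background was read from near-empty droplets of 10 to 100 UMIs. There were 14626 for mSTAR1302 and 68836 for vehicle. Atf3 stood at 103 CPM in mSTAR1302 and 153 CPM in vehicle droplets (23 and 136 UMIs), and Fos at 207 and 439 CPM. Jund stood at 1579 and 1482 CPM, Junb at 832 and 1057 CPM, Fosb at 459 and 404 CPM, and Egr1 at 76.5 and 114 CPM. Jun stood at 256 and 361 CPM in droplets, Egr2 had 2 and 9 UMIs there, and Egr3 stood at 18.0 and 14.7 CPM (4 and 13 UMIs). All 9 genes were thus present in free RNA. For Egr1 its level was close to that in CD8 gated cells of both libraries. For Junb it was above the 693 CPM of mSTAR1302 CD8 gated cells and level with the 1059 CPM of vehicle ones. For Jund it was close to the 1696 CPM of mSTAR1302 cells and below the 1766 CPM of vehicle cells. For Atf3 and Fosb in vehicle and Fos in mSTAR1302 it was lower than in the cells. For Jun it was close to the 288 CPM of mSTAR1302 cells and below the 472 CPM of vehicle cells. For Egr3 it was close to the 16.4 CPM of mSTAR1302 cells and below the 21.7 CPM of vehicle cells, on few UMIs. Between the libraries, free RNA was lower in mSTAR1302 for Fos, Jun, Junb, Egr1, Egr2 and Atf3. It was higher for Fosb, Jund and Egr3. A low count in a cell may therefore not be its own. Taking this profile off at 10% of UMIs, a setting chosen after seeing the data, left the CD8 ratios of Fos at −0.72, Jun at −0.73 and Atf3 at −1.13.

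Per cell, fewer of the genes were found in the mSTAR1302 library. After thinning, CD8 cells held a UMI of 3.59 of the 9 genes on average for mSTAR1302 and 4.38 for vehicle, with a median of 4 in both. At least 6 of the genes were found in 9.14% of mSTAR1302 and 20.2% of vehicle CD8 cells. The summed UMIs of the 9 genes had a median of 10 and 14 per cell, a 90th percentile of 21 and 27 and a maximum of 66 and 73. The top 10% of cells held 23.7% and 21.9% of these UMIs. Jund gave much of the sum. At full depth it held 82748 of the 179797 UMIs of the 9 genes for mSTAR1302 and 51119 of 140059 for vehicle. The spread of the sum therefore does not describe the genes found in fewer cells. At least 6 genes were found in CD4 gates in 13.3% and 20.4% of cells without Foxp3, and in 5.97% and 10.0% of cells with it.

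**Figure D3:**
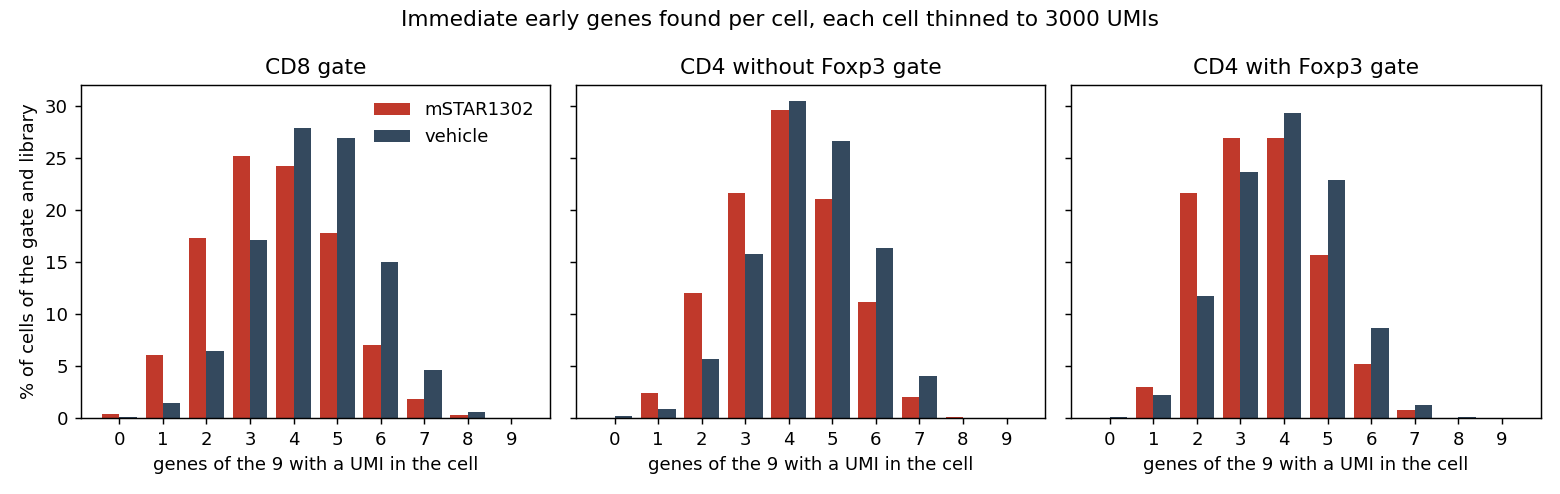
Share of cells by the number of the 9 genes with a UMI, for each gate, with every cell thinned to 3000 UMIs; mSTAR1302 bars are red and left, vehicle bars dark and right. In the CD8 gate the vehicle bars extend further right, with 20.2% of cells at 6 or more genes against 9.14% for mSTAR1302.

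Across thinned CD8 cells of 1 library the genes were weakly correlated on the log2(UMI + 1) scale. Cells share a library and counts were sparse, so these are descriptions. The pair with the highest mean over both libraries was Fos with Fosb, with Pearson's r of 0.31 over 5610 mSTAR1302 cells and 0.23 over 2340 vehicle cells. Fos with Jun gave 0.26 and 0.25, and Fosb with Jund 0.25 and 0.28, so Fosb with Jund was the higher pair in vehicle cells. Egr3 stood apart from Fos at 0.019 and 0.0052, and Egr1 with Egr3 gave 0.10 and 0.073. Of 5014 other genes found in at least 5% of cells of both libraries, those most like the summed members were Dusp1, which dephosphorylates MAP kinases (0.29 and 0.35), and Nfkbia, the NF-kappaB inhibitor (0.28 and 0.35). Next came Zfp36, Gadd45b, Bhlhe40, Ier5, Klf6, Ier2, Lmna and Ppp1r15a, with mean r of 0.27, 0.26, 0.26, 0.26, 0.24, 0.22, 0.22 and 0.21. Of these 10 genes 8 were on the list of other immediate early and stress genes and 1, Bhlhe40, was on the receptor signal list. The highest heat shock gene, Dnaja1, ranked 58 with r of 0.12 and 0.13.

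Other gene lists were set beside the members in the CD8 gate, over genes reaching 20 CPM in at least 1 library, to show values for both possible sources of these transcripts. Of 12 heat shock and chaperone genes, 8 lay above 0 and 4 below, with a median log2 ratio of 0.17. Of the 12, 0 were 2-fold higher and 1 was 2-fold lower, where 1.04% of all genes were higher and 4.73% lower. Hspa1a, an inducible HSP70, stood at 66.7 CPM in mSTAR1302 and 43.3 CPM in vehicle (log2 0.62), and Hsph1 at 68.4 and 55.5 CPM (0.30). The lower ones were Hspb1, at 4.86 and 36.9 CPM (−2.92), and Dnajb4, at 29.4 and 52.3 CPM (−0.83). Ratios of genes on this and the other lists were taken over the whole gate. Macrophage and monocyte markers there summed to 79.0 CPM for mSTAR1302 and 897 CPM for vehicle. The part of other cell types in the list ratios was not tested. The median of the heat shock list lay above 0 and that of the members below it. What this says of the source of the transcripts was not tested. Of 11 heat shock genes in the CD4 gate with Foxp3, 2 were 2-fold higher and 1, Dnajb4, was 2-fold lower (−1.14), where 0.576% of all genes were higher and 1.95% lower. Hspa1a stood there at 48.9 CPM in mSTAR1302 and 19.8 CPM in vehicle, and Hspa1b at 81.8 and 29.5 CPM, both over 2-fold higher.

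Of 23 other immediate early and stress genes, 17 lay below 0, with a median log2 ratio of −0.32. Of the 23, 3 were 2-fold lower and 0 were 2-fold higher, where 4.73% of all genes were lower and 1.04% higher. These 3 were Klf4, a zinc finger factor of quiescence, at 36.7 CPM in mSTAR1302 and 143 CPM in vehicle (−1.96), and the metallothioneins Mt2 (−1.27) and Mt1 (−1.18). Zfp36l1, an RNA-binding protein that promotes mRNA decay, followed at 186 and 344 CPM (−0.89). Dusp1 and Zfp36, both among the genes most like the members across cells, had log2 ratios of −0.55 and −0.80. In the CD4 gate without Foxp3 this list had a median of −0.85. There 7 of 22 genes were 2-fold lower and 0 higher, where 5.35% of all genes were lower and 0.906% higher.

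Of 27 receptor signal genes, 18 lay below 0 and 9 above in the CD8 gate, with a median log2 ratio of −0.59. Of the 27, 7 were 2-fold lower and 0 were 2-fold higher, where 4.73% of all genes were lower and 1.04% higher. The lowest were the chemokine Xcl1, at 160 CPM in mSTAR1302 and 775 CPM in vehicle (−2.27), the ERK pathway inhibitors Spry2, at 16.6 and 74.9 CPM (−2.17), and Spry1, at 15.7 and 67.1 CPM (−2.09), and Cd83, at 13.9 and 51.1 CPM (−1.88). Nr4a1, the receptor-induced nuclear receptor used in reporters of T cell receptor signal, stood at 122 and 190 CPM (−0.64). The list was not uniform. Genes on it with higher levels, named after their values were seen, were Icos (+0.63), the chemokine Ccl4 (+0.60), the early activation marker Cd69 (+0.56) and Ifng (+0.50). Of 26 receptor signal genes in the CD4 gate without Foxp3, 17 lay below 0, with a median of −0.19; 3 were 2-fold higher and 2 were 2-fold lower, where 0.906% of all genes were higher and 5.35% lower. The lower ones were Xcl1 (−3.41) and Myc (−1.34), and the higher ones included Ccl3 (1.41). Il2 stood at 42.3 CPM in mSTAR1302 and 5.09 CPM in vehicle, and Ifng at 348 and 124 CPM, both over 2-fold higher.

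Lists of relatives of the members had medians nearer to 0 in the CD8 gate, although single genes on them had lower ratios than any member. Over all genes in this gate 4.73% were at least 2-fold lower and 1.04% at least 2-fold higher. Of 14 other AP-1 family genes 8 lay below 0, with a median log2 ratio of −0.10, and 2 were 2-fold lower and 0 higher. Jdp2, a repressor that dimerises with Jun, stood at 10.8 CPM in mSTAR1302 and 42.8 CPM in vehicle (−1.99), and Bach2, a repressor that limits effector differentiation and competes for AP-1 sites, at 26.7 and 72.0 CPM (−1.43). Maf stood at 59.0 and 93.8 CPM (−0.67), and Bach1 at 24.9 and 17.4 CPM (+0.51). Of 15 Egr partners and upstream factors 11 lay below 0, with a median of −0.09, above that of all genes; 1 was 2-fold lower and 0 were higher. That gene was Elk3, a ternary complex factor at serum response elements, at 44.2 and 103 CPM (−1.22). Nab2, a co-repressor of Egr proteins and itself an Egr target, stood at 15.3 and 24.0 CPM (−0.65), Dgkz at 45.7 and 73.6 CPM (−0.69) and Nfatc2 at 33.4 and 20.5 CPM (+0.70).

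**Figure D4:**
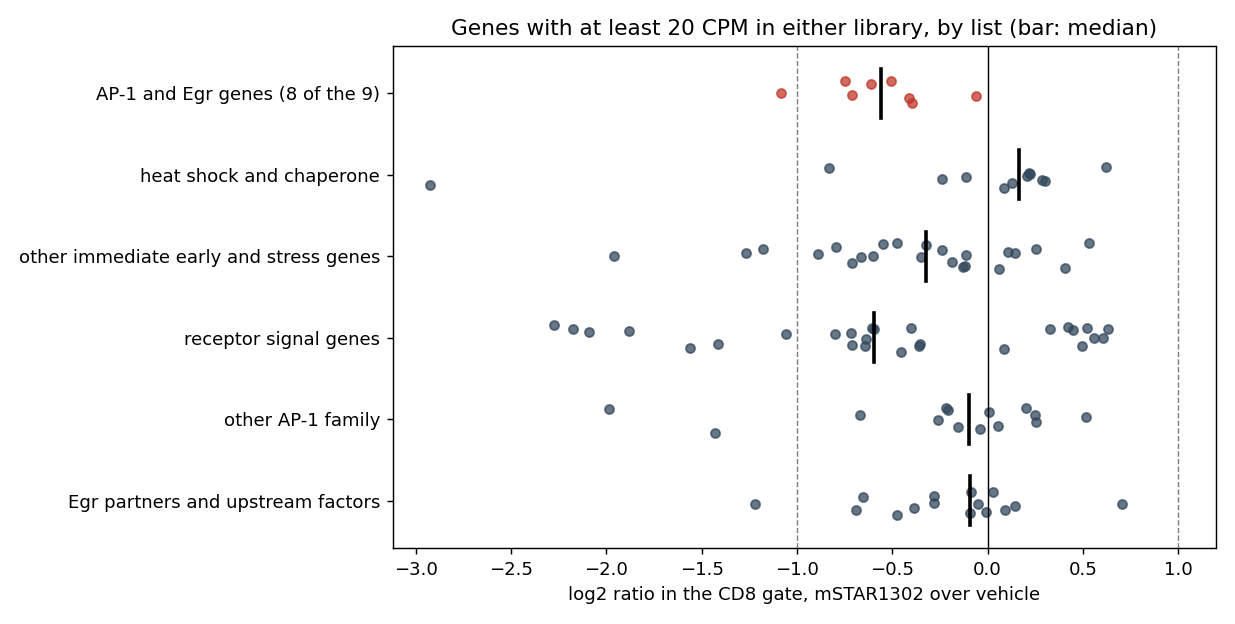
Log2 ratio in the CD8 gate, mSTAR1302 over vehicle, of every gene that reached 20 CPM in at least 1 library, by list; each point is a gene, black bars are medians and dashed lines mark 2-fold. Heat shock genes centre on 0.17, the 8 plotted members on −0.56 and receptor signal genes on −0.59 with points on both sides of 0.

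The difference was then taken within subsets of the CD8 gate. Across 4 ranges of UMIs per cell the median member was at −0.91, −0.75, −0.57 and −0.54 from shallow to deep cells. Across mitochondrial shares of 0 to 2.5, 2.5 to 5 and 5 to 10 percent it was at −0.63, −0.48 and −0.46. In thinned cells with a UMI of Hspa1a or Hspa1b it was at −0.48, and in cells without it at −0.70. In cells with an Nr4a1 UMI it was at −0.23, and in cells without it at −0.77. The median was below 0 in every subset, while single genes were not. Egr3 was at +0.88 in cells with Pdcd1, the gene of the checkpoint receptor PD-1, and at −1.10 in cells without it. The median of all tested genes was −0.14 in the whole gate and is not given for any subset. A shift of the members in a subset therefore cannot be told apart from a general shift there. In the 90 mSTAR1302 and 204 vehicle cells of the gate with a Foxp3 UMI, which are not plotted, Egr1 was at 0.03 (−0.68 to 0.71) and Egr3 at 0.77 (−1.04 to 2.48), with intervals that included no change.

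The states of CD8 cells themselves differed between the libraries. Gzma, a cytotoxic granule protease, had a UMI in 55.0% of thinned mSTAR1302 and 5.38% of vehicle cells, and Pdcd1 in 18.4% and 40.0%. The ratio of Atf3 moved with them. Among cells with Pdcd1 Atf3 was at −0.19, and among cells without it at −1.50. Among cells with Gzma, 3083 and only 126, Atf3 was at −0.75, and among the 2527 and 2214 cells without it at −0.64. Without Gzma the ratio of Atf3 was thus nearer to 0 than in all thinned cells, where it was −1.16. With Gzma its interval, −1.19 to −0.27 on 44 vehicle UMIs, included that value, so no difference is read there. Fos was at −0.53 and Jun at −0.50 among cells without Gzma, and at −0.98 and −0.88 among cells with it. In all thinned cells Fos was at −0.68 and Jun at −0.70, so their ratios were nearer to 0 only without Gzma. The median member was at −0.37 without Gzma and −0.88 with it, against −0.68 in all thinned cells.

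**Figure D5:**
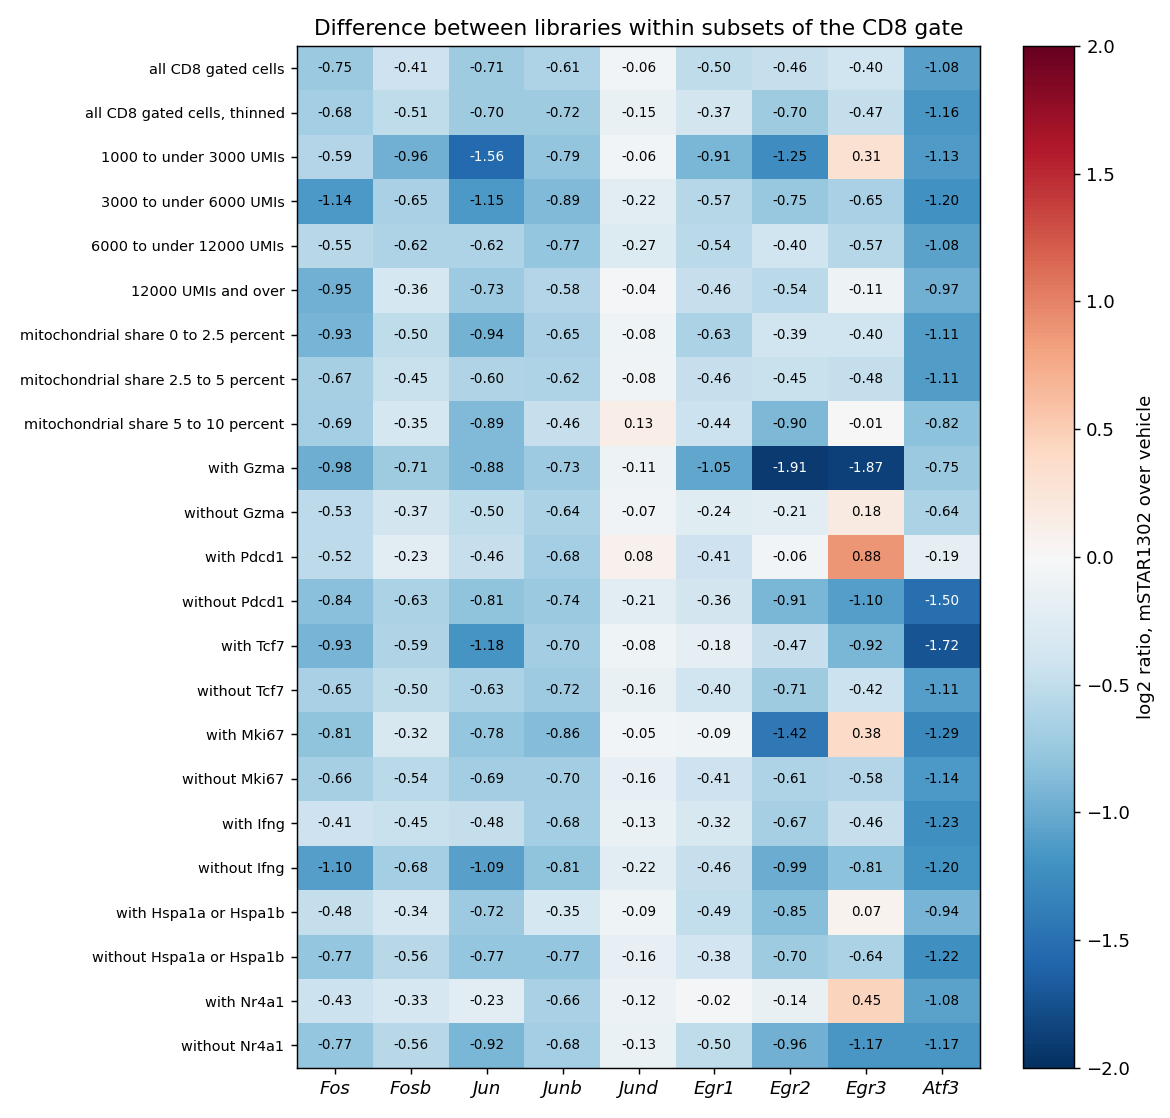
Log2 ratio of each gene, mSTAR1302 over vehicle, in subsets of the CD8 gate (rows), from blue (lower in mSTAR1302) to red (higher); the rows from Gzma down, and the second row, use cells thinned to 3000 UMIs. Fos, Fosb, Jun, Junb, Egr1, Egr2 and Atf3 are below 0 in all rows shown, and Egr3 reaches +0.88 in cells with Pdcd1.

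Within a library, cells went through 1 preparation, so they could be compared without the treatment. For the splits that follow, no share over all genes is given beside the counts of members. A shift of the members therefore cannot be told apart from a general shift between the cells compared. In the mSTAR1302 library all 9 genes were higher in the 800 thinned CD8 cells with a UMI of Hspa1a or Hspa1b than in the 4810 without, with a median log2 ratio of 0.41, though the interval for Egr2 included no change. In the vehicle library 7 of the 9 were higher, with a median of 0.34, and for Egr2, Egr3 and Atf3 among these 7 the interval included no change. Jun stood at 468 CPM in mSTAR1302 cells with these heat shock transcripts and 252 CPM in cells without, and at 772 and 429 CPM in the vehicle library. Junb did not follow in both: it stood at 835 and 697 CPM in the mSTAR1302 library and at 1061 and 1190 CPM in the vehicle library.

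Receptor signal genes split the cells as well. All 9 genes were higher in mSTAR1302 cells with an Nr4a1 UMI than in those without, with a median of 0.47, and 7 of 9 were higher in vehicle cells, with a median of 0.20. In vehicle cells Jun was lower with Nr4a1, at 401 CPM with it and 495 CPM without it (−0.31, interval −0.41 to −0.20), and the intervals for Egr1, Egr2 and Atf3 included no change. Egr3 was farthest apart, at 39.3 CPM in mSTAR1302 cells with Nr4a1 and 8.56 CPM in those without, against 28.7 and 19.3 CPM in the vehicle library. With an Ifng UMI, Atf3 stood at 137 CPM and without it at 81.2 CPM in the mSTAR1302 library, and at 321 and 186 CPM in the vehicle library. Fos and Jun were higher with Ifng in the mSTAR1302 library (0.55 and 0.58), but in the vehicle library Fos was lower (−0.14, interval −0.24 to −0.04) and the interval for Jun included no change (−0.02). Cells with Pdcd1 in the mSTAR1302 library stood at 44.0 CPM of Egr3 and 231 CPM of Atf3, and cells without it at 10.3 and 87.7 CPM. In the vehicle library the same split gave 23.9 and 264 CPM with Pdcd1, and 22.1 and 249 CPM without it. Egr3 and Atf3, named for their size among the 9, were thus higher in mSTAR1302 cells with Pdcd1, with a log2 ratio of 2.10 and 1.40, where the vehicle ratios were 0.11 and 0.09 with intervals that included no change; the difference between the libraries was not tested. Fos was lower in cells with Pdcd1 in both libraries, at −0.24 (−0.35 to −0.13) and −0.55 (−0.66 to −0.45). Of the 9 genes 7 lay above 0 in this split in the mSTAR1302 library and 3 in the vehicle library.

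Gzma split the mSTAR1302 cells the other way. All 9 genes were lower in the 3083 cells with Gzma than in the 2527 without, with a median log2 ratio of −0.27. Atf3 stood at 69.4 CPM with Gzma and 169 CPM without it, and Egr3 at 9.41 and 25.1 CPM. In the vehicle library Atf3 stood at 116 CPM in the 126 cells with Gzma and 263 CPM in those without. Lower Atf3 in cells with Gzma was therefore seen in both libraries, at log2 ratios of −1.28 and −1.18. The other genes did not follow in the vehicle library: 5 of the 9 were higher in cells with Gzma, the median was 0.07, and Egr1 was at 0.64 (0.25 to 1.01).

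The receptor chains that mSTAR1302 is known to bind gave a comparison inside each library. Cells of the CD8 gate with a UMI of Trbv13-2 or Trbv13-3 numbered 805 for mSTAR1302 and 101 for vehicle, and cells with only another Trbv segment 802 and 503. The rest of the 6290 and 2460 gated cells had no UMI of a listed segment and were left out. The cells compared were deeper than the gate. Their medians were 8329 and 8469 UMIs in mSTAR1302, against 6597.5 for the gate, and 11933 and 11099 in vehicle, against 9865.5. In the mSTAR1302 library Egr3 stood at 7.58 CPM in cells with the bound segments and 23.9 CPM in cells with other segments (59 and 194 UMIs), a log2 ratio of −1.65 (−2.10 to −1.23). Atf3 stood at 77.1 and 181 CPM, a log2 ratio of −1.23 (−1.37 to −1.10). The median of the 9 genes was −0.18, and Fos, Egr1 and Egr2 had intervals that included no change. After thinning, Fos was at −0.31 (−0.47 to −0.16), which left no change out, while Egr3 was at −1.94 and Atf3 at −1.30. In the vehicle library the median was 0.09, Egr3 stood at 30.1 and 22.9 CPM (0.40, interval −0.13 to 0.90) and Atf3 at 216 and 219 CPM (−0.02, interval −0.21 to 0.16). Egr3 and Atf3 were thus lower in cells with the bound segments in the mSTAR1302 library, and a difference in them was not detectable in the vehicle library at this depth.

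The 2 sets of mSTAR1302 cells differed in state too. After thinning, Gzma had a UMI in 65.1% of cells with the bound segments and 41.0% of cells with other segments, and Pdcd1 in 10.3% and 30.7%. Among thinned cells without a Gzma UMI, Atf3 stood at 116 CPM (93.5 to 141) in the 274 cells with the bound segments and 220 CPM (196 to 246) in the 452 with other segments. Egr3 stood at 10.9 CPM (5.01 to 20.8) and 30.2 CPM (21.7 to 41.0) in these cells, on 9 and 41 UMIs. Atf3 and Egr3 were thus lower there too. The intervals cover counting error and leave out the spread between cells, so they are not read as a test. Between the libraries, Atf3 was at 77.1 CPM for mSTAR1302 and 216 CPM for vehicle in cells with the bound segments, a log2 ratio of −1.48 (−1.69 to −1.28). In cells with other segments it was at 181 and 219 CPM, a log2 ratio of −0.27 (−0.38 to −0.17). For Egr3 the same ratios were −1.99 (−2.58 to −1.38) and 0.06 (−0.26 to 0.38). Jun differed less between the sets, at −0.68 and −0.46, and so did Junb, at −0.75 and −0.56.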

How the data were processed

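The deposited values are raw UMI counts per gene and barcode in unfiltered matrices from Cell Ranger, run by the authors. Its version is uncertain: 4 per the file headers, 6.0.1 per the submitters' processing notes, which also list mm10. Neither annotation release nor strand setting is given in the sources used here. Each library was 1 sample, with 96486469 UMIs for mSTAR1302 and 110026997 for vehicle. Barcodes were kept at 1000 UMIs, 500 genes and at most 10% mitochondrial UMIs, and 1872 (17.0%) and 1704 (18.3%) were removed by the mitochondrial limit. T cells with both Cd4 and Cd8 UMIs (9.67% and 19.3%) or neither (7.43% and 14.6%) fell outside the gates. No doublet caller was used, so doublets remain; the deepest 1% of cells were left out as an alternative.

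Counts were summed per gate and library. Ratios carry no pseudocount, and a count of 3 UMIs or fewer took a floor of 3. Thinning drew 3000 UMIs per cell without replacement (seed 1). The calculation of ratios was tested on simulated data. Gene positions were matched by identifier to GENCODE M21, where 32235 of 32285 had an entry; start windows are RefSeq's on GRCm38.p6. The tools were SciPy 1.17.1 and NumPy 2.4.6 under Python 3.11.15, with matplotlib 3.10.9 and pandas 2.3.3.

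The members and the gene lists were chosen with earlier results of these data known. All 9 members are named, and of each list the up to 4 genes with the largest CD8 ratio in either direction at 20 CPM or more; other genes named are stated as such or serve a comparison. Genes most like the members are the 10 with the highest mean correlation in both libraries.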

Additional observations from a re-analysis of the deposited data

Results flagged for a closer look

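Egr3 had opposite directions in 2 gates of the same libraries, with log2 ratios of mSTAR1302 over vehicle of 0.77 in the CD4 gate without Foxp3 and −0.40 in the CD8 gate. Jund did so as well, with 0.055 in the CD4 gate without Foxp3 and −0.059 in the CD8 gate, and its sign turned in both gates under another setting (+0.06 in the CD8 gate with median-ratio scaling and −0.002 in the CD4 gate without Foxp3 after thinning). In the CD4 gate without Foxp3 the levels of Egr3 lay below those in near-empty droplets of both libraries. The interval for the difference in the share of cells with Egr3 there included no change. With 1 library per group, the difference between the gates was not tested.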

How the results depend on the processing

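With 1 library per group no replicate could be left out and no spread between mice is known. No paired analysis was possible because each group has 1 library. The median member ratio stayed below 0 in all 3 gates: −0.68 to −0.38 over 12 alternatives in the CD8 gate, −0.37 to −0.04 over 11 in the CD4 gate without Foxp3 and −0.99 to −0.22 over 11 in the CD4 gate with Foxp3. In the CD8 gate it was −0.38 with median-ratio scaling, which left 0 members 2-fold lower, and −0.68 after thinning to 3000 UMIs. In the CD4 gate without Foxp3, 2 members of any level (Jun and Egr2) were 2-fold lower, against 3 after thinning to 3000 UMIs (Fos joined them), 1 with median-ratio scaling and 0 after thinning to 1000 UMIs before gating. Without cells carrying markers of other types the median there was −0.37 and 1 member (Egr3) was 2-fold higher. In the CD4 gate with Foxp3 the median was −0.52 after thinning to 3000 UMIs and −0.99 after thinning to 1000 UMIs before gating, with 3 members 2-fold lower. The share of all genes past 2-fold is not given for these settings, so the counts of members are not read as results about them. For cells with Trbv13-2 or Trbv13-3 over other Trbv cells the median was −0.28 with cells weighted equally and −0.24 after thinning in the mSTAR1302 library, and −0.027 after thinning in the vehicle library. Genes at least 2-fold higher in the CD8, CD4 without Foxp3 and CD4 with Foxp3 gates numbered 57, 50 and 33, against 105, 87 and 123 at a minimum of 5 CPM and 391, 218 and 2769 with no filter. Genes 2-fold lower numbered 259, 295 and 112, against 720, 991 and 560 at 5 CPM and 3272, 2285 and 580 with no filter. The causes of these shifts were not tested, except that a lower filter adds genes with few UMIs. Under alternatives, 211 ratios of single members stayed within their counting interval and 92 moved out of it.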
